A study of Homo sapiens with 6 samples.

Results

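Of the 28395 genes listed for A375 cells, 128 were long noncoding genes with a LINC or microRNA host symbol and a mean level of at least 0 log2 CPM, the log2 of reads scaled to the size of the library. They fall into 2 classes, 115 of the 1324 genes with a LINC number and 13 of the 43 with a MIR...HG symbol. The members were chosen by their symbol and by the measured mean level itself, so that their being present is a criterion and no result. A375 is an established human melanoma line. The cells were cultured for 6 h with 0.01% olive oil (OLO, 3 libraries) or 0.01% ozonated olive oil (OZO, 3 libraries), and both groups came from the same line, labelled WT, with no untreated arm. Directional RNA libraries were sequenced, and each level here is the authors' mean over all 6 libraries, so neither the spread between libraries nor the difference between OZO and OLO is described.

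LINC genes are long intergenic noncoding RNA genes that received a running number because no function was known when they were named. Such RNAs are usually spliced and polyadenylated, and they are typically present in fewer cell types and at lower levels than messenger RNAs. A microRNA host is a long transcript from which DROSHA and DGCR8 cut hairpins, which are exported by XPO5 with RAN, trimmed by DICER1 and loaded onto Argonaute proteins. The mature microRNA then pairs with messenger RNAs mainly through its seed, the bases 2 to 8 from its 5′ end.

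The 23 hairpins that lie on the host's strand inside 10 of the 13 hosts give 40 mature sequences with 34 different seeds. MIR17HG, the primary transcript of an oncogenic cluster, carries 6 hairpins, and its main products fall into seed families within the cluster. The following sequences are shown because they are the main products of the host with the highest level. They are RefSeq records on GRCh38.p14, with the seed in capitals.
miR-17-5p in MIR17HG, chr13:91350618-91350640, plus strand: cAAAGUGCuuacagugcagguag
miR-20a-5p in MIR17HG, chr13:91351072-91351094, plus strand: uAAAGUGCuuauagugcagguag
miR-18a-5p in MIR17HG, chr13:91350756-91350778, plus strand: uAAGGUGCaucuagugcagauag
miR-19a-3p in MIR17HG, chr13:91350939-91350961, plus strand: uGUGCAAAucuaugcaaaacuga
miR-19b-3p in MIR17HG, chr13:91351245-91351267, plus strand: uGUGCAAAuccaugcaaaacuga
miR-92a-3p in MIR17HG, chr13:91351361-91351382, plus strand: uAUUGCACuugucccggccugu
The first pair share the seed AAAGUGC and the miR-19 pair share GUGCAAA. The seed of miR-18a-5p, AAGGUGC, and that of miR-92a-3p, AUUGCAC, occur in no other matched mature sequence of these hosts.

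Some seeds recur across hosts on different chromosomes. GAGGUAG, the let-7 seed, is carried by products of MIR100HG on chromosome 11, of MIR99AHG on chromosome 21 and of MIR4500HG on chromosome 13, and ACCCGUA is shared by the products of the first and second of these. The let-7 family is best known for repressing growth-promoting messenger RNAs. These sequences are shown because they carry the seeds that recur across hosts among the matched products, again with the seed in capitals.
let-7a-5p in MIR100HG, chr11:122146568-122146589, minus strand: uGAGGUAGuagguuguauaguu
let-7c-5p in MIR99AHG, chr21:16539838-16539859, plus strand: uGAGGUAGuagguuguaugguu
miR-4500 in MIR4500HG, chr13:87618671-87618687, minus strand: uGAGGUAGuaguuucuu
miR-100-5p in MIR100HG, chr11:122152275-122152296, minus strand: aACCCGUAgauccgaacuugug
miR-99a-5p in MIR99AHG, chr21:16539101-16539122, plus strand: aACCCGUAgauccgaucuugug
Of the 34 seeds of the matched hairpins, 5 were carried by more than 1 mature sequence, and GAGGUAG and ACCCGUA were found in more than 1 host. MIR125B2 in MIR99AHG and MIR4458 in MIR4458HG were not matched, so other seeds and hosts may recur too.

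Further products are shown for MIR23AHG and MIR100HG, followed by 1 product each for the remaining hosts with a matched hairpin. miR-137, hosted by MIR137HG, is known to target the messenger RNA of MITF, the melanocyte master regulator, and miR-31 has been studied widely in cancer.
miR-23a-3p in MIR23AHG, chr19:13836595-13836615, minus strand: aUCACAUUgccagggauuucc
miR-27a-3p in MIR23AHG, chr19:13836447-13836467, minus strand: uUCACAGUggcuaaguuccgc
miR-24-3p in MIR23AHG, chr19:13836289-13836310, minus strand: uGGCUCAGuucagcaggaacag
miR-125b-5p in MIR100HG, chr11:122099809-122099830, minus strand: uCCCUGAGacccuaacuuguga
miR-31-5p in MIR31HG, chr9:21512158-21512178, minus strand: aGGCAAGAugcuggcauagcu
miR-137-3p in MIR137HG, chr1:98046091-98046113, minus strand: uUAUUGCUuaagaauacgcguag
miR-600 in MIR600HG, chr9:123111561-123111583, minus strand: aCUUACAGacaagagccuugcuc
miR-924 in MIR924HG, chr18:39622153-39622172, minus strand: aGAGUCUUgugaugucuugc
miR-4453 in MIR4453HG, chr4:152536432-152536451, plus strand: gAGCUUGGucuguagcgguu
No hairpin sequence was matched for MIR548XHG, MIR4458HG and MIR3667HG.

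Depth was read from the low end of the table. The lowest level, -5.20 log2 CPM, corresponds to no read in any library at a geometric mean library size of 18409903 counted reads. It was given to 7012 genes. For all 6402 low genes that could be tested, the height above it gave an odd whole number to within 0.01, as whole reads do once voom has added 0.5 to each count. Reads per library, and shares of reads, are based throughout on geometric means over the libraries (of the count plus 0.5, less 0.5). These lie below the arithmetic means where libraries differ. A level of 0 corresponds to 17.9 reads per library, with a counting error of 0.14 (log2, SE over the 6 libraries). The counting error shrinks to 0.01 for the highest members. These errors cover counting alone. A gene at the lowest level cannot be read as silent, because EIF4A1, a translation factor, and NDUFA6, a respiratory chain subunit, both used by nearly every cell, were listed at that level too (genes picked after their values were seen).

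Markers of the cell line were mixed. SOX10, a neural crest factor of the melanocyte lineage, had a level of 5.64, and MITF had 4.76. AXL and NGFR, markers of dedifferentiated melanoma, had 8.06 and 5.24, while SOX9 of the same list had 2.22. S100B, a neural crest marker, had 1.48. The pigment cell genes were low, with 1.01 for MLANA, -1.56 for PMEL and -1.81 for DCT, and TYR and PRAME were listed at the lowest level. Among markers of other cell types, the keratinocyte list reached at most 2.08 (KRT14) and the endothelial list at most 0.12 (PECAM1). In the leukocyte list PTPRC and CD3E lay at -3.55 and -4.94, while CD68, a lysosomal protein gene, had 5.04. The lineage transcription factors SOX10 and MITF were thus present, as the melanoma label implies, while the other 6 genes of the melanocyte list lay at 1.48 or lower.

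LINC genes reached the minimum seldom. At or above 0 were 8.69% of the LINC genes, against 15.6% of 1199 genes with antisense symbols, 12.8% of 4108 lncRNA genes in RefSeq, 45.2% of all genes in the table and 61.7% of 19175 protein-coding genes. Another 577 LINC genes had reads but stayed below 0, and 632, or 47.7%, were at the lowest level. The microRNA hosts passed more often, with 13 of 43, or 30.2%, 21 below 0 and 9 at the lowest level. The hosts of small nucleolar RNAs, with SNHG symbols, passed in 18 of 25 cases, or 72.0%. These shares describe the choice of members, and no test was made on them.

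**Figure D1:**
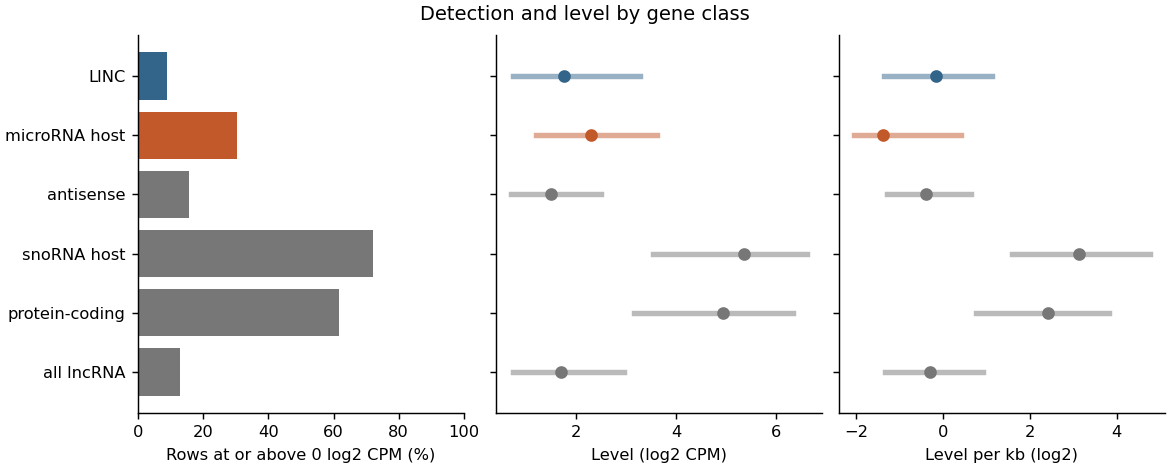
Left, bars from 0 give the percentage of genes of each class at or above 0 log2 CPM; middle and right, the median (point) and interquartile range (line) over the genes at or above 0 of the mean level in log2 CPM and of that level per kilobase of exon (log2). LINC genes and microRNA hosts passed in 8.69% and 30.2% of cases, and their medians per kilobase, -0.15 and -1.37, lie below the 2.42 of protein-coding genes.

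Among LINC members the level ran from 0.01 to 8.72, with a median of 1.76 and an interquartile range of 0.74 to 3.28. The median corresponds to 61.9 reads per library. The class was bottom-heavy, with 38 members between 0 and 1, 23 between 1 and 2, 21 between 2 and 3, and 16 between 3 and 4. Another 8 lay between 4 and 5, 7 between 5 and 6, and 2 above 6. Hosts had a median of 2.30, or 90.4 reads per library, and ranged from 0.43 to 5.61.

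A pair of LINC genes stood far above the rest. LINC01419, on chromosome 8 (GRCh38 83403758 to 83408900, plus strand), had a level of 8.72, or 7786 reads per library. LINC01029, on chromosome 18 (77971294 to 77993727, minus strand), had 8.18, or 5334 reads. A higher level than the first was found for 345 of all listed genes, and 615 exceeded the second. For orientation, the nuclear lncRNAs MALAT1 and NEAT1 had 9.81 and 9.33 (picked after their values were seen). The step down to the third LINC gene was 2.65 on the log2 scale, the widest gap between neighbours in the order. LINC01419 alone held 25.8% of the reads summed over all LINC genes, the top 2 held 43.5% and the top 10 held 61.5%.

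**Figure D2:**
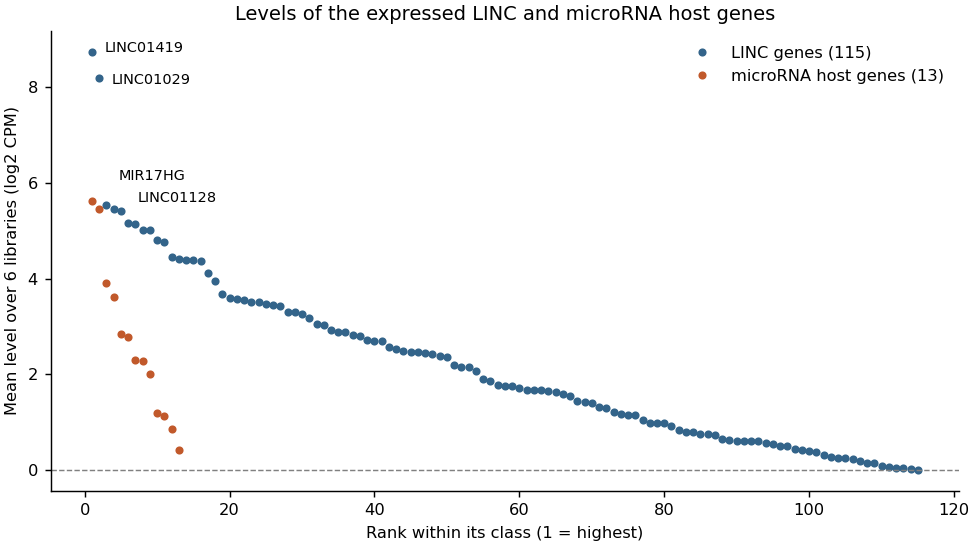
Each point is 1 gene, placed by its rank within its class (x axis) and its mean level over the 6 libraries in log2 CPM (y axis), with the dashed line at the minimum of 0. LINC01419 and LINC01029 sit at 8.72 and 8.18, separated by 2.65 from the next LINC gene, whereas MIR17HG and MIR100HG lead the hosts at 5.61 and 5.45.

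The next 10 LINC genes lay closer together. LINC01128 on chromosome 1 had 5.53 (850 reads), LINC02693 on chromosome 17 had 5.46, and LINC02067 on chromosome 3 had 5.41. LINC00674 on chromosome 17 and LINC00667 on chromosome 18 followed with 5.16 and 5.14. LINC02864, LINC01000 and LINC00839 had 5.02, 5.01 and 4.79, and LINC01004 and LINC00641 had 4.76 and 4.45. The order went on without a break, with LINC00997 next at 4.40. Among the 12 highest LINC genes, 7 of the 11 neighbouring pairs differed by more than 1.96 times their counting error. Further down, 4 of 103 pairs did. The median step over all 114 pairs was 0.03, and the unknown spread between libraries would widen that error.

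A few LINC members with a described role were singled out after their values were seen. LINC00673, linked to pancreatic cancer risk, had 3.47 (204 reads). LINC00473, a cAMP-responsive transcript that acts with the CREB coactivator CRTC in lung cancer, had 1.76. LINC00632, whose locus gives rise to the circular RNA CDR1as, had 1.63. LINC00518, used as a melanoma marker in skin biopsies, was not a member, with -2.43 or 2.92 reads per library. None of these was among the 12 LINC genes of highest level.

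Levels between genes are comparable only per length. Per kilobase of exon in GENCODE 44, LINC members had a median of -0.15 (log2, n = 110 genes with a model) and hosts -1.37 (13 genes), whereas antisense members had -0.40, SNHG members 3.13 and protein-coding genes 2.42. Host gene models were longer, with a median of 12.8 kb of exon in 11 exons against 4.38 kb in 7 exons for LINC members. On this scale the hosts fell below the LINC genes, the reverse of the order by level. That order rests on the models. The genes are listed by NCBI Gene number, so GENCODE lengths may differ from the exons on which the reads were counted. LINC00662, for instance, has 33198 exonic bases in GENCODE but a RefSeq locus of 3.45 kb. With the longest single transcript in place of all exons the medians were 0.56 for LINC members and 0.27 for hosts, which differ less. Without members whose exons overlap another gene, microRNA genes aside, the order turned, with 0.41 for the 3 hosts left and 0.094 for 55 LINC members.

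The highest level per kilobase was again that of LINC01419, at 8.12, and LINC01029 had 6.03. LINC02067 had 3.90 and LINC00294 had 2.63. The other 6 among the top 10, with LINC00674 at 7.80, LINC00997 at 3.0, LINC00941 at 2.98, LINC01881 at 2.96, LINC00508 at 2.94 and LINC01004 at 2.77, have GENCODE and RefSeq spans that differ by more than 1.5 times. LINC00674 shows the limit most clearly, with 160 exonic bases modelled in a RefSeq locus of 34.4 kb, so its value per kilobase cannot be relied on. Spans disagreed by that much for 42 of the 110 LINC models and 5 of the 13 host models, MIR17HG included.

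The hosts form a ladder of levels. MIR17HG, on chromosome 13 (91347687 to 91354577), had a level of 5.61 (897 reads) and MIR100HG, on chromosome 11 (122028329 to 122422871), had 5.45 (804 reads). Both together held 57.2% of the reads of all 43 hosts. MIR23AHG followed with 3.91 (277 reads), and MIR99AHG had 3.62 (226 reads) from a RefSeq locus of 561 kb. MIR600HG and MIR548XHG had 2.85 and 2.78.

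The other 7 hosts lay at 2.30 or lower. MIR924HG had 2.30 and MIR31HG, which lies near the cell cycle inhibitor locus of chromosome 9, had 2.29. MIR4453HG had 2.0, MIR4458HG 1.20 and MIR137HG 1.13. MIR3667HG had 0.86 and MIR4500HG 0.43, the lowest member of the class at 24.3 reads. Of the 12 neighbouring pairs, 9 differed by more than 1.96 times their counting error. Since 13 hosts lie less densely than 115 LINC genes, this share is not comparable with that over all LINC pairs. Among the 11 pairs at the top of each class, 8 did so for hosts and 7 for LINC genes. The hosts with a matched product that carries the let-7 seed lay far apart, at 5.45, 3.62 and 0.43. The seed of MIR4458, which GENCODE places in MIR4458HG, was not read.

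Several well known hosts were outside the class (picked after their values were seen). MIR210HG, host of a hypoxia-induced microRNA, had -3.81 (0.81 reads) and MIR155HG, an immune cell transcript, had -3.88. MIR22HG was listed at the lowest level. Just outside the minimum lay MIR762HG at -0.02. At the LINC edge, LINC02910, LINC00052 and LINC00993 lay inside at 0.01, 0.02 and 0.05, and LINC02587, LINC00115 and LINC00701 outside at -0.07, -0.15 and -0.16, distances that are all smaller than 1.96 times the counting error at the minimum.

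The rows of the matched hairpins themselves held almost no reads. Of the 23 matched hairpins on the host's strand, 14 lie in an exon of the host model and 9 in an intron, and 22 have a row of their own. Of these, 14 were at the lowest level, including all 6 in MIR17HG, whose host stood at 897 reads. The other 8 had geometric means between 0.10 reads per library (MIR27A and MIR2682) and 1.21 (MIR23A). Hairpin rows in general were low, with 1135 of 1509 at the lowest level and 14 at or above 0. How reads lying on both a host and its hairpin were assigned is not given in the sources used here, and mature microRNAs were not measured by these libraries, so a host's level is not a level of its microRNAs.

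**Figure D3:**
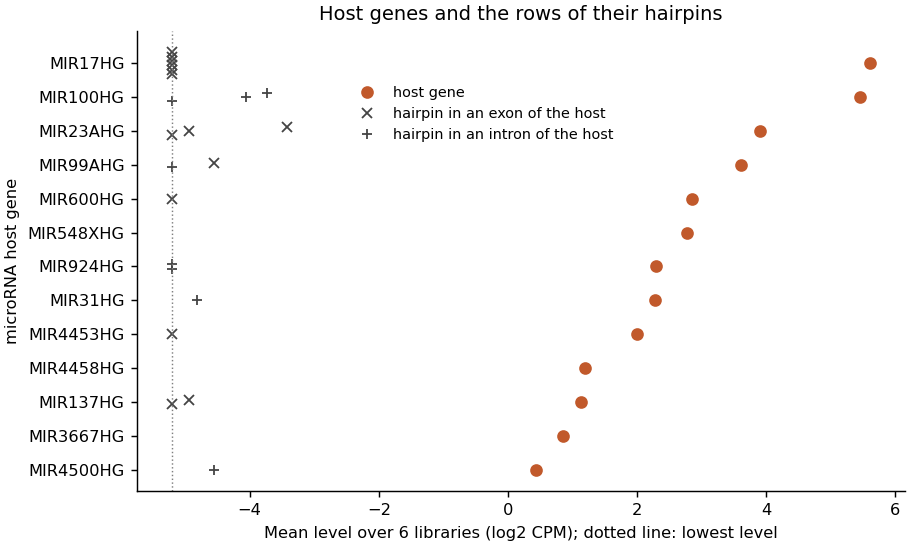
For each of the 13 hosts (y axis) the filled point gives the host's mean level over the 6 libraries in log2 CPM (x axis), and crosses and plus signs give its matched hairpins in exons and introns on the same strand, spread slightly in height for visibility. All hairpin rows shown lie at or below -3.42, close to the lowest level of -5.20 (dotted line), while the hosts run from 0.43 to 5.61.

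The genes that make and load microRNAs were all well above the minimum. All 11 of the fixed list had a level of at least 3.87. For cropping of the hairpin, DROSHA had 7.13 and DGCR8 5.00. For export and dicing, RAN had 9.46, XPO5 6.96 and DICER1 6.85, and the DICER1 partners PRKRA and TARBP2 had 5.11 and 3.87. Among the Argonaute genes AGO2 had 6.78, AGO3 6.73, AGO1 6.59 and AGO4 4.48. Of these, RAN also serves protein transport and is abundant in most dividing cells.

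The start sites of the members were examined in the 300 bases from 250 before to 50 after the RefSeq start, available for 90 of the 128 members. A window was counted as CpG-rich at a GC content of at least 50% and a ratio of observed to expected CpG of at least 0.6. Of 79 LINC members, 29, or 36.7%, had such a start, against 17.2% of 407 LINC genes with reads below 0 and 11.5% of 444 at the lowest level. The share was 46.8% over all 27305 promoters and 63.1% over protein-coding ones. Among hosts, 5 of 11 starts were CpG-rich. Within the LINC members, the median level of the 29 with a CpG-rich start was 1.76 and that of the other 50 was 1.61, a small difference beside the interquartile range of the class. Per kilobase the order was the other way, with -0.60 for 26 genes and -0.54 for 49. These are descriptions across genes, which are not independent replicates.

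**Figure D4:**
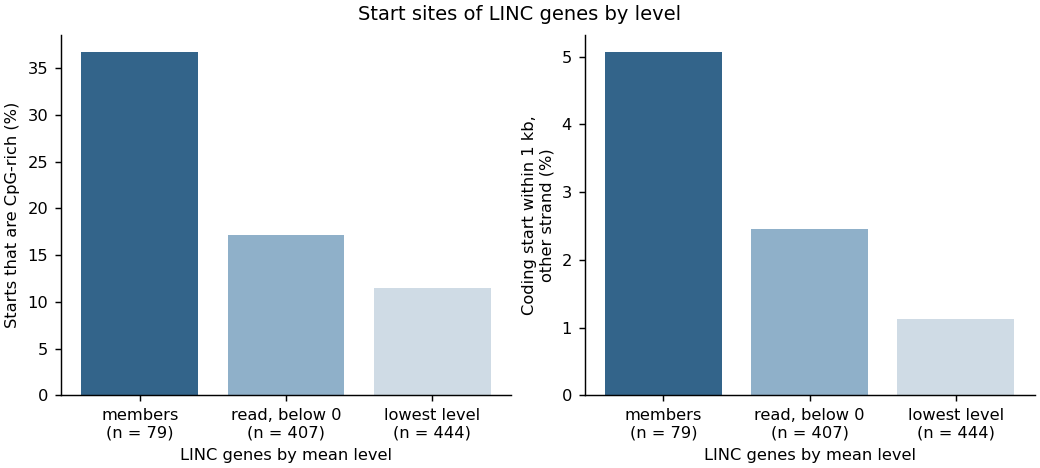
Bars from 0 give, for LINC genes at or above 0 log2 CPM (members), with reads but below 0, and at the lowest level, the percentage with a CpG-rich start (left) and the percentage with a protein-coding start within 1 kb on the other strand (right), with the number of genes with a start window below each bar. The CpG-rich share falls from 36.7% through 17.2% to 11.5%, and the share near a coding start from 5.06% through 2.46% to 1.13%. Coding starts were available for 15843 genes only, so the shares on the right can be too low.

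The starts of the pair of leading hosts differ widely in CpG content. These windows are shown for that contrast, with each CG in capitals. The coordinates are GRCh38.p14.
MIR17HG, chr13:91347437-91347736, plus strand: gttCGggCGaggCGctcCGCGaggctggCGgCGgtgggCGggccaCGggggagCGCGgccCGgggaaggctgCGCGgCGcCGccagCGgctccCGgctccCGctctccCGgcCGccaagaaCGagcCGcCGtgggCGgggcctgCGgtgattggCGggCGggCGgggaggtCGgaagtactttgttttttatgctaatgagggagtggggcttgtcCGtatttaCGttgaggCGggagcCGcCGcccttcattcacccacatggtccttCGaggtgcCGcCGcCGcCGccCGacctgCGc
MIR100HG, chr11:122422822-122423121, minus strand: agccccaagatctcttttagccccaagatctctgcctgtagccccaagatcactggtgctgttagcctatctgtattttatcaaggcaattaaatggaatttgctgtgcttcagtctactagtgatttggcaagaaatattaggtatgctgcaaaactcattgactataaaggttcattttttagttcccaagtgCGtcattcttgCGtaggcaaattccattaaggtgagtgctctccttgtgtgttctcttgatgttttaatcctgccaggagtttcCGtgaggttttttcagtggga
The MIR17HG window holds 42 CG and has a ratio of 1.07 at a GC content of 73.0%, and the MIR100HG window holds 3 and has 0.23 at 41.7%. Hosts of nearly the same level thus start in very different sequence. MIR31HG and MIR4458HG, much lower in level, have ratios of 0.87 and 0.86, near that of MIR17HG.

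Among the highest LINC genes with a window the same contrast appears. LINC00667 and LINC00839 are shown for it.
LINC00667, chr18:5237850-5238149, plus strand: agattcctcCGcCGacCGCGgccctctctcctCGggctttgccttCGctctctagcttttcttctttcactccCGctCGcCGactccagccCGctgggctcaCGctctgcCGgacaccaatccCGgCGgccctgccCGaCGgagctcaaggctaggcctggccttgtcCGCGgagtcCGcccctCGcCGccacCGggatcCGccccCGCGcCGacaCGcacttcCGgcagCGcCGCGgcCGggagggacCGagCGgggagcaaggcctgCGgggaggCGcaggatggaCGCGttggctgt
LINC00839, chr10:42475241-42475540, plus strand: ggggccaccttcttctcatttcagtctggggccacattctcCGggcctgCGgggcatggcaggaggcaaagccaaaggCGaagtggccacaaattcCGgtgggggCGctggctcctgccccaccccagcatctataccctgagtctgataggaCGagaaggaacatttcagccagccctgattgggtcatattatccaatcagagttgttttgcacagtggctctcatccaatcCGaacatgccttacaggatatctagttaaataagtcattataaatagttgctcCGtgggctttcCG
The first holds 38 CG with a ratio of 0.99, and the second holds 9 with 0.43. The letters TATAAA, read on the transcribed strand between 40 and 20 bases before the start, occurred in none of the 90 member windows and in 2.50% of all promoters. No match says only that these letters are not there.

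Most members with a start window lay far from the nearest available protein-coding start on the other strand. Such starts were available for 15843 protein-coding genes, against 19175 listed here, so a nearer start can be missed. The distances can therefore be too long and the shares too low. The median distance from a LINC member's start to the nearest such start was 120 kb, against 186 kb for LINC genes with reads below 0 and 212 kb for those at the lowest level. An available coding start lay within 1 kb for 6 of the 90 members, or 6.67%, of which 4 were LINC genes. Bidirectional starts of this kind are a common source of noncoding RNA next to active genes.

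The members for which such a neighbour was found are few enough to name. LINC00205, with a level of 3.59, starts 157 bases from POFUT2, an O-fucosyltransferase gene with 4.22. LINC02603 had 2.44 and its start overlaps that of ZNF169 by 13 bases, with 1.43 for the zinc finger gene. LINC01560 had 1.56 and lies 112 bases from ZNF41, which had 4.60, and LINC01547 had 0.51 and lies 116 bases from SLX9, which had 3.5. All 4 starts were CpG-rich, and in 3 the coding partner had the higher level. Among the hosts, MIR4453HG starts 172 bases from FBXW7, a ubiquitin ligase subunit with 4.84, and MIR4500HG starts 408 bases from SLITRK5, which had 2.34.

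Exons shared with another gene touch many members. Apart from microRNA genes, exons of 55 of the 110 LINC models and 10 of the 13 host models overlap an exon of another GENCODE gene. For 23 LINC members the partner is on the same strand and for 41 on the other strand, with both kinds for some. A protein-coding partner was found for 14 LINC members. The use of strand in counting is not given in the sources used here. Where the shared bases lie in the exons on which reads were counted, reads of such partners therefore cannot be told apart from those of the member.

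The coding partner had the higher level for 5 of those LINC members, and no level was listed for the coding partners of LINC00339, LINC01140 and LINC01176. LINC01619, at 1.76, shares 503 bases on the same strand with BTG1, an antiproliferative gene at 7.10, and LINC00189, at 1.58, shares 302 with BACH1, a repressor of haem oxygenase, at 6.25. On the other strand, LINC00294 shares 263 bases with CSTF3, a polyadenylation factor at 6.55, LINC00472 shares 949 with OGFRL1 at 5.98, and LINC01232 shares 496 with TM9SF2 at 7.86. Among the hosts, MIR137HG, at 1.13, shares 494 bases on the same strand with DPYD, the gene of pyrimidine breakdown, which had 5.89, and MIR600HG shares 254 with STRBP at 5.75. MIR23AHG shares 2310 bases on the other strand with ZSWIM4, and they had 3.91 and 3.92. These overlaps are those of GENCODE models. The model spans 234 kb for LINC00472, 116 kb for MIR137HG and 19.05 kb for MIR23AHG. Their RefSeq loci span 12.9, 61.7 and 8.40 kb, so the shared bases may lie outside the exons counted. For LINC01619, LINC00189, LINC00294, LINC01232 and MIR600HG the GENCODE and RefSeq spans are nearly equal. How much of any member's level comes from its partner was not tested.

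Members lie on every chromosome but Y. Their share among the LINC and host genes was lowest on chromosome 8, with 2 of 54, and highest on chromosome 19, with 7 of 30. Members within 250 kb of each other made 5 pairs, all of LINC genes. LINC02864 and LINC02582, 60.4 kb apart on chromosome 18, had 5.02 and 2.07, and LINC00839 and LINC01518, 178 kb apart on chromosome 10, had 4.79 and 0.37. LINC00662 and LINC02987 overlap on opposite strands on chromosome 19 and had 2.88 and 2.80. LINC00987 and LINC02367 had 1.30 and 1.18. LINC00673 and LINC00511 on chromosome 17 had 3.47 and 0.55, but share 1 Ensembl identifier, so that their rows may not be separate. Among matched hairpins, 1 lies inside a LINC member: MIRLET7D, on the opposite strand of LINC02603. Its row stood at 25.3 reads, above all 22 hairpin rows matched to the hosts. An exon of LINC00472 in GENCODE overlaps MIR30C2 on the same strand, in a model of 234 kb against a RefSeq locus of 12.9 kb.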

How the data were processed

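RNA was sequenced from 6 A375 libraries, 3 OLO and 3 OZO, made with a directional kit in paired-end mode. Per the study's methods and the submitters' processing notes, reads were aligned to hg38 with HISAT2 2.1.0, and were counted per gene with featureCounts 2.1.1 and compared with limma 3.58.1. The deposited table holds 28395 genes. Its log2 column used here is the authors' mean log2 CPM over all libraries, without SD. Its other 5 numeric columns hold the authors' own comparison of OZO with OLO (log2 fold change, moderated t as a score, p-value, adjusted p-value and log odds). They were not used, so that comparison is not analysed here, and no test was run.

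Reads per library are geometric means. They were derived from the height of each level above the lowest one, given voom's added count of 0.5, after a check on simulated data. Counting SE is the Poisson error of that mean over 6 libraries. Depth per library is not known. The study describes its A375 transcriptome data as coming from independent experiments. Genes were matched by NCBI Gene number to RefSeq GRCh38.p14 (128 of 128 members). For GENCODE 44 (123 members) the match was by Ensembl identifier with the same symbol, or else by a unique symbol. Python 3.11.15 was used with pandas 2.3.3 and numpy 2.4.6. Members and lists were chosen with earlier results of these data known. Named were all hosts, the 12 LINC members of highest level and the 10 of highest level per kilobase, those beside the minimum, those within 1 kb of a coding start on the other strand, LINC00518 and the fixed lists. Members named for a described role, an overlapping gene or a close neighbour were picked after their values were seen. Alternatives were other minimums, symbol patterns, lengths, distances and gene models.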

Additional observations from a re-analysis of the deposited data

How the results depend on the processing

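The counts of members stayed within 1.5 times of those given: 77 to 152 LINC genes and 11 to 19 hosts at minimums of 1 and -1, and 115 and 15 with the wider symbol pattern, which adds hyphenated hosts. Median levels moved with the minimum, as its construction implies, to 2.73 for LINC members and 2.78 for hosts at a minimum of 1, and to -4.94 and -1.51 without one. Medians per kilobase moved to 0.56 (LINC) and 0.27 (hosts) with the longest transcript and to 0.094 (55 genes) and -0.36 (2 genes) without members that overlap another gene. Not counting microRNA genes as overlaps left 3 hosts with a median of 0.41 and LINC members at 0.094, which turned the order. With only gene models of like span, chosen after seeing the data like the overlap settings for hosts and the one that sets microRNA genes aside, they were -0.24 for LINC members and -0.55 for hosts, which moved. Hosts lay below LINC genes per kilobase in the other settings. The share near an available coding start was 6.67% within 500 bases and 10.0% within 5 kb. No paired analysis was possible because each level is a mean over both groups. The leave-one-out settings, the other pseudocount and filter, and the comparison of OZO with OLO were therefore not run. Depth limits the order near the minimum, where counting error is 0.14.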
